A study of Mus musculus with 32 samples.

Results

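The RGS genes (regulators of G-protein signalling) were followed by RNA sequencing through adipogenesis in 3T3-L1, a mouse line of fibroblast-like preadipocytes that stores fat once induced with hormones. Members were chosen by gene symbol. Of 10 listed genes, 9 had a row among the 20560 genes of the deposited table, and Rgs14 is not analysed here. The list was drawn up because Rgs2 and Rgs4 were among the largest changes in these same libraries. Rgs2 ranked 2 among the rises from day 0 to day 3 in control cells, and Rgs4 ranked 1 among the falls with knockdown on day 3. The reason given for the list names no comparison. These were taken as the ones used and are described below for all members without a test. If other days also entered the choice, the p-values of Rgs2 and Rgs4 on those days rest on values used to pick them. The fits behind steps between days, and behind changes of the knockdown difference between days, hold the libraries of all days. Libraries taken as those used for the choice therefore enter their estimate of spread, except for Rgs2 within knockdown.

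All 32 libraries came from 3T3-L1 cells taken through the same adipogenic protocol and differed in shRNA and day. Control cells, labelled WT in genotype, carried a scramble shRNA (shCtrl), and Zbtb9 knockdown cells carried shRNA 1 or shRNA 2. Zbtb9 encodes a zinc finger and BTB domain protein. At each of days 0, 3, 7 and 11 there were 4 control libraries and 2 from each knockdown shRNA. Confluent cells received dexamethasone, isobutylmethylxanthine (IBMX, a phosphodiesterase inhibitor that raises cyclic AMP) and insulin on day 0, insulin alone from day 3 and plain medium from day 7. The labels call day 0 cells preadipocytes, those of days 3 and 7 premature adipocytes and those of day 11 mature adipocytes. They name the replicates biological without saying whether cultures were separate, so p-values measure the spread between these libraries. The labels do not say how the shRNAs were delivered or whether the cells were clones.

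A G-protein-coupled receptor signals by loading its G protein alpha subunit with GTP. RGS proteins bind that loaded subunit and speed the hydrolysis of GTP, which shortens the signal. Members of the R4 subfamily (Rgs2, Rgs3, Rgs4, Rgs5 and Rgs16) act on Gq or Gi classes, Rgs2 being selective for Gq. They are mostly small proteins, although Rgs3 also has long isoforms. Rgs17 and Rgs19 belong to the RZ subfamily and act on the Gi class, including Gz. Rgs10 and Rgs12 belong to the R12 subfamily and act mainly on Gi, Rgs12 being a large protein with further domains. In fat cells Gs-coupled receptors drive the breakdown of stored lipid and Gi-coupled receptors restrain it.

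Library depth ran from 22280361 to 31073718 reads in genes, rebuilt from the deposited log2 values. Levels below are normalized reads, that is, these reads over the size factor of their library. Zbtb9 itself lay between 6.35 and 22.3 normalized reads in the 16 control libraries and between 0 and 19.3 in the 16 knockdown libraries. The arms did not overlap on days 0 and 7. They overlapped on day 3, and on day 11 because of replicate 2 of shRNA 1 (19.3). Of the exon bases of Zbtb9, 84.4% also lie in Ggnbp1 on the same strand, so reads from the shared bases may not all have been counted for it. The summed level of 6 adipocyte markers (Adipoq, Fabp4, Plin1, Cidec, Lep and Cfd) in control rose from at most 102 on day 0 to at least 21692 on day 7, and was 10853 to 14365 on day 11. The label of mature adipocyte on day 11 thus sits beside a lower marker sum than on day 7. The sum of 6 preadipocyte markers in control was 66151 to 71528 on day 3 and 213509 to 248146 on day 11. On day 11 it overlapped the 244533 to 257348 of day 0. Such sums add normalized reads, so 1 abundant gene can set them. The sum of 4 macrophage markers in the table overlapped between arms on days 0 and 3, at 53.1 or less. It was 89.3 to 149.65 in knockdown against 46.7 to 80.6 in control on day 7, and 265 to 628 against 166 to 278 on day 11, where the arms overlapped. Ptprc, which marks all white blood cells, stayed at 3 reads or fewer in every library. The sum of 5 endothelial markers was lower in knockdown on day 0, at 41.6 to 51.0 against 62.3 to 77.9, and on day 11, at 45.7 to 74.5 against 79.9 to 100.1, and overlapped on days 3 and 7. The part of these sums in the results below was not tested. Of 3 skeletal muscle markers in the table, the sum never exceeded 11.2.

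Rgs2, the Gq-selective member, had the widest range. In control it read 374, 404, 388 and 428 normalized reads on day 0 and 31346, 31494, 31289.9 and 30444 on day 3. It then read 7133, 6604, 6864 and 6806 on day 7 and 1490.2, 1437, 1175 and 1679 on day 11. No 2 days overlapped, and the order of levels was day 3, day 7, day 11 and day 0. The control mean was 78.2-fold higher on day 3 than on day 0, a log2 difference of 6.05 on the deposited scale. The deposited values are drawn towards each gene's mean over all libraries, so log2 differences are somewhat understated. From day 7 to day 11 Rgs2 fell by 2.18 on the log2 scale in control (95% confidence interval -2.33 to -2.03, limma adjusted p = 2.17e-14).

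In knockdown cells Rgs2 went through the same sequence of levels but stayed higher late. With shRNA 1 it read 400.3 and 405 on day 0, 41016 and 42146 on day 3, 13149.6 and 13622 on day 7, and 3821 and 3205 on day 11. With shRNA 2 it read 345 and 309, then 30807 and 28774, then 10907 and 10345, then 2922 and 2805. All 4 knockdown libraries lay above all 4 controls on days 7 and 11, and the arms overlapped on days 0 and 3. Here and in the comparisons of the arms below, the 2 hairpins were pooled as 1 group unless stated otherwise. The SDs, intervals and p-values therefore include the spread between hairpins. The Rgs2 mean was 12006 ± 1621 against 6852 ± 218 (SD, n = 4) on day 7, a log2 difference of 0.78 (0.61 to 0.94, adjusted p = 1.46e-06). At day 11 it was 3188 ± 454 against 1445 ± 208, a difference of 1.10 (0.84 to 1.36, adjusted p = 7.24e-05). At day 0 the difference was -0.12, given with no test because the control libraries of that day belong to the comparison taken to have chosen Rgs2. Along the knockdown time course Rgs2 fell by 1.85 from day 7 to day 11 (adjusted p = 3.46e-16). The step from day 3 to day 7, -1.52 on the log2 scale, starts at the day 3 peak, taken here as the reason for choosing Rgs2, and is given with no test. The adipocyte marker sum was already higher in knockdown on day 3, at 10892.5 to 13762 against 5534 to 7042 in control, a day on which Rgs2 overlapped between the arms. It was also higher alongside the late differences, at 66897 to 101096 in knockdown against 21692 to 24880 in control on day 7 and 41480.5 to 54432 against 10853 to 14365 on day 11. Its part in the Rgs2 difference was not tested. In such bulk samples more cells of a type and more RNA per cell cannot be told apart.

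**Figure D1:**
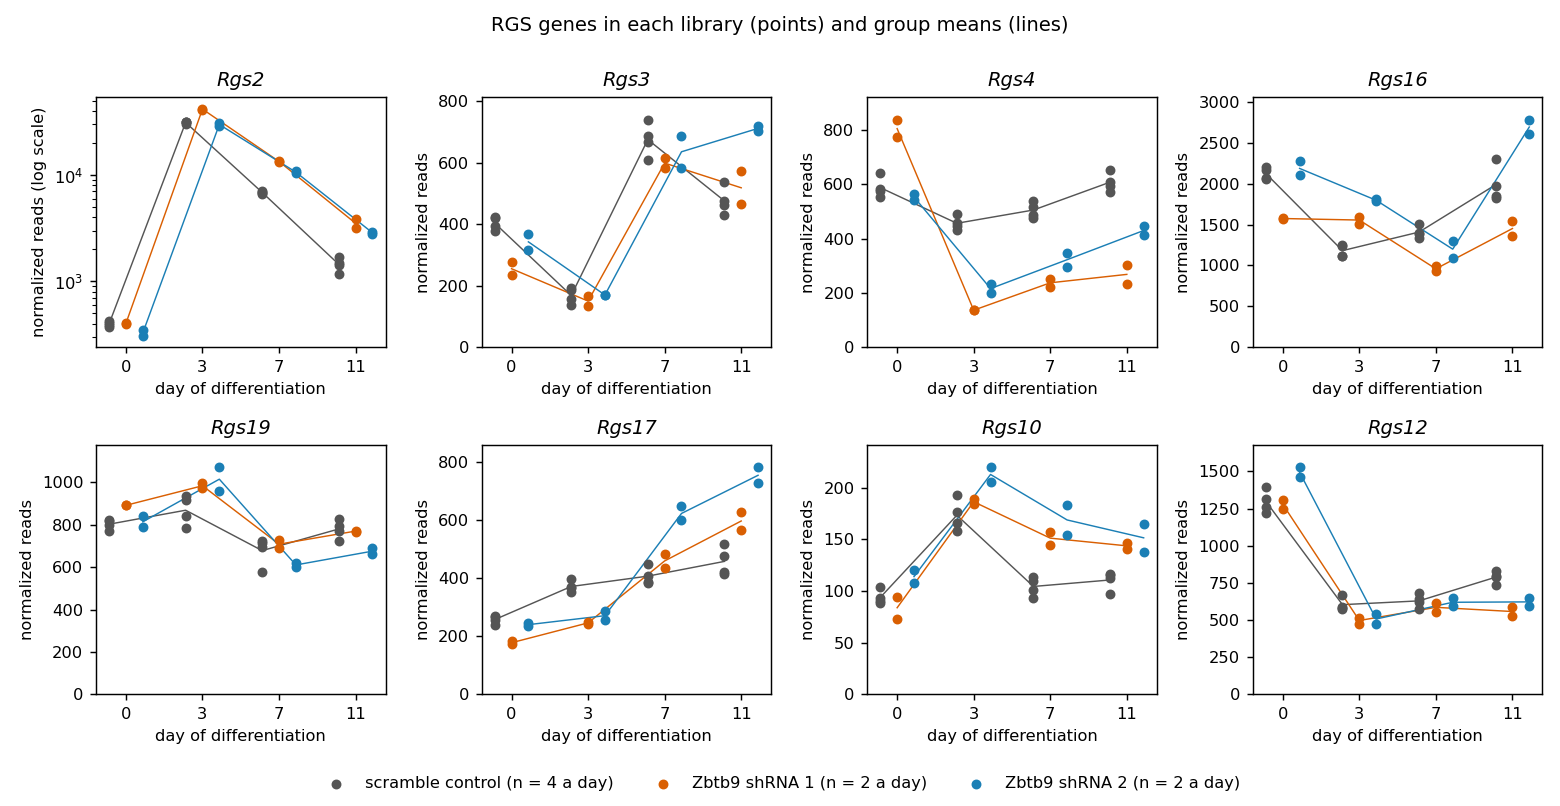
Normalized reads of 8 RGS genes in each library by day, with points for libraries and lines for group means, for control (grey), shRNA 1 (orange) and shRNA 2 (blue). Rgs2 has a log axis, and its 4 control libraries on day 3 lie between 30444 and 31494 normalized reads against 374 to 428 on day 0.

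Rgs4, a Gi and Gq regulator, ran the other way. In control it read 576, 642, 582 and 554 normalized reads on day 0, 491, 432, 457 and 446 on day 3, 486, 518, 478 and 540.4 on day 7, and 611, 654, 573 and 595 on day 11. The control range was narrow, with days 0 and 11 overlapping each other and days 3 and 7 overlapping each other. With shRNA 1 it read 838 and 774 on day 0, 136 and 135 on day 3, 222 and 252 on day 7, and 303 and 233 on day 11. With shRNA 2 it read 563 and 544, then 234 and 198, then 296 and 349, then 414 and 446.

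From day 3 on, every knockdown library had less Rgs4 than every control library of its day. At day 3 the knockdown mean was 38.5% of control, a log2 difference of -1.26. At day 7 it was 279.6 ± 55.1 against 506 ± 29.0 (SD, n = 4), a fall by 0.79 on the log2 scale (-1.02 to -0.56, adjusted p = 1.97e-05). At day 11 it was 349 ± 98.7 against 608 ± 34.2, a fall by 0.77 (-1.14 to -0.41, adjusted p = 0.0052). At day 0 the difference was 0.17 (-0.11 to 0.45, adjusted p = 0.478), with shRNA 1 above and shRNA 2 within or just below the control range. In control, Rgs4 rose by 0.25 from day 7 to day 11 (0.12 to 0.38, adjusted p = 0.00117). The same step in knockdown was 0.27 (-0.14 to 0.67, adjusted p = 0.253). Rgs4 is also expressed in pericytes. The sum of pericyte and smooth muscle markers, 4 of 5 of them in the table, was higher in knockdown, at 585 to 732 against 322 to 419 on day 7 and 514 to 595 against 277 to 316 on day 11, with Abcc9 at 3 reads or fewer in each group except the controls of day 7. On days 0 and 3 the arms overlapped in that sum. The sum of 6 preadipocyte markers was lower in knockdown on day 0, at 219886 to 232040 against 244533 to 257348, and on day 7, at 149223 to 173707 against 179410 to 203589, and overlapped on days 3 and 11. The part of these sums, or of the adipocyte sum, in the Rgs4 difference was not tested.

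Rgs2 (ENSMUSG00000026360) lies on chromosome 1 from 143999338 to 144004161 and Rgs4 (ENSMUSG00000038530) from 169741477 to 169747642, both on the minus strand (GENCODE M21, GRCm38). Rgs5 (169655501 to 169695813) lies close to Rgs4 on the plus strand, and Rgs16 (153740349 to 153745468) is on the same chromosome. The stretches just upstream of Rgs2 and Rgs4 are shown because the list was drawn up around these genes and they lie on the same chromosome and strand. Each line gives the 250 bases before the start, on the gene's strand (minus), from RefSeq GRCm38.p6. That of Rgs2 is chr1:144004150-144004399 and that of Rgs4 is chr1:169747643-169747892. Capitals mark TGACG or its reverse CGTCA (the core of the cyclic AMP response element, searched since IBMX raises cyclic AMP), CCAAT or its reverse ATTGG, and TATAAA.
Rgs2: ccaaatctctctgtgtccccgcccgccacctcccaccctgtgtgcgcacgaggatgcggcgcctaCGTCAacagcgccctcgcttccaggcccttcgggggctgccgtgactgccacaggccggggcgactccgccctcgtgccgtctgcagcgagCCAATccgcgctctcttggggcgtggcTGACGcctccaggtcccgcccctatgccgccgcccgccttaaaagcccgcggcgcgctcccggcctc
Rgs4: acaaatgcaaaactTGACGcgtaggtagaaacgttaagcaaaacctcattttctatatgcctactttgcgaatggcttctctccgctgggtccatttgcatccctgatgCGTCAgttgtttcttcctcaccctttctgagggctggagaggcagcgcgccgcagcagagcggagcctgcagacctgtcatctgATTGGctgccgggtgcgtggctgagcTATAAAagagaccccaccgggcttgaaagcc
Each stretch holds the cyclic AMP core 2 times and CCAAT once, and only that of Rgs4 holds TATAAA, 31 bases before the start. Both strands were searched, and no motif overlapped another. Over 32851 promoter stretches of this length in the RefSeq table, 17.8% hold TGACG, 33.8% CCAAT and 12.4% TATAAA. Of 13 member stretches, 3 hold TGACG (Rgs2, Rgs4 and 1 of Rgs12). None of the 13 holds the full element TGACGTCA, present in 1.55% of all stretches. Nor does any hold the C/EBP palindrome TTGCGCAA (0.164% of all), the E-box CACGTG (6.02%) or the full glucocorticoid receptor palindrome (3 of all stretches). A match to these letters is a description and no evidence of binding, and a lack of one speaks only of these letters in this window.

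Rgs16, of the same small subfamily, had the 2 hairpins on opposite sides of control by day 11. Control read 2069, 2178, 2206 and 2057 on day 0, 1117, 1245, 1110.4 and 1257 on day 3, 1506, 1403, 1342 and 1390.2 on day 7, and 2305, 1981, 1851 and 1825 on day 11. With shRNA 1 it read 1579 and 1574, 1515 and 1599.8, 990.4 and 928, and 1551 and 1356 on those days. With shRNA 2 it read 2105 and 2277, 1811 and 1789.7, 1305 and 1096, and 2787 and 2611. At day 3 all knockdown libraries lay above all controls (log2 difference 0.48, not tested), and on day 7 all lay below them. The fall on day 7 was 0.38 on the log2 scale (-0.56 to -0.20, adjusted p = 0.00185). At day 11 shRNA 1 lay below every control and shRNA 2 above every control, and the pooled difference was 0.00 (-0.56 to 0.55, adjusted p = 0.996). Of the exon bases of Rgs16, 10.1% also lie in the antisense gene Gm28513. Without known strand use, reads from the shared bases cannot be told apart.

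Rgs3, a further R4 member, was at its lowest on day 3 and higher on day 7 in both arms. Control ranged from 376 to 425 normalized reads on day 0, 137 to 191 on day 3, 609.5 to 739.9 on day 7 and 430.0 to 536 on day 11. Knockdown ranged from 233 to 368, 132 to 171, 582 to 689 and 464 to 721. In knockdown it fell by 0.78 from day 0 to day 3 (adjusted p = 2.66e-07) and rose by 1.76 from day 3 to day 7 (adjusted p = 1.09e-12). In control it fell by 0.47 from day 7 to day 11 (adjusted p = 1.11e-05). The same step in knockdown was -0.02 (adjusted p = 0.868). Knockdown minus control was -0.41 on day 0 (-0.66 to -0.16, adjusted p = 0.0792), -0.12 on day 7 (adjusted p = 0.210) and 0.32 on day 11 (0.05 to 0.60, adjusted p = 0.0642). Without replicate 1 of shRNA 2 on day 0 the difference there was -0.51 (adjusted p = 0.0243). Without replicate 2 of shRNA 1 on day 11 it was 0.44 (adjusted p = 0.0034). Over all alternatives the adjusted p ran from 8.27e-05 to 0.613 on day 0 and from 0.00238 to 0.390 on day 11.

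Rgs5, the last R4 member and a known marker of pericytes, had 0 to 18 reads per library and fell under the filter on low values (2 to the power of the value at least 10 in at least 4 libraries of a fit). It had 2 to 15 reads in the control and 4 to 18 in the knockdown libraries of day 0. At day 11 control had 5, 0, 9 and 5 reads and knockdown 1, 2, 1 and 0, the latter all at or under the floor of 3 reads. No fold is given for it. The other 8 members passed the filter in every fit and make up the counts below, less those left untested.

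Rgs17, a Gi and Gz regulator of the RZ subfamily, climbed through differentiation and changed sides between the arms. Control read 256, 239, 266 and 269 normalized reads on day 0, 351, 371, 366 and 398 on day 3, 449.7, 409, 384 and 387 on day 7, and 416, 421, 478 and 516 on day 11. With shRNA 1 it read 173 and 183, 244 and 249, 435 and 484, and 565 and 629. With shRNA 2 it read 246 and 235, 256 and 287, 599 and 647, and 781 and 727. All knockdown libraries lay below control on day 3 (log2 difference -0.47, not tested) and above it on day 11, and the arms overlapped on days 0 and 7. The rise with knockdown was 0.36 on day 7 (0.14 to 0.59, adjusted p = 0.0102) and 0.51 on day 11 (0.29 to 0.73, adjusted p = 0.00277). At day 0 the difference was -0.28 (-0.52 to -0.04, adjusted p = 0.186). Between days 3 and 7 Rgs17 rose by 0.95 in knockdown (0.79 to 1.11, adjusted p = 4.26e-10), while the control means were 372 ± 19.3 and 407 ± 30.5.

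Rgs19, of the same subfamily, stayed within 579 and 1071 normalized reads in all 32 libraries. Control ranged from 770.1 to 822 on day 0, 785 to 936 on day 3, 579 to 724 on day 7 and 724 to 829 on day 11. Knockdown ranged from 789 to 892, 959.6 to 1071, 602 to 729 and 661 to 773. All 4 knockdown libraries were above control on day 3. No tested difference between the arms passed the threshold, at 0.08 (-0.04 to 0.20), -0.04 (-0.21 to 0.14) and -0.10 (-0.26 to 0.05) on days 0, 7 and 11. In knockdown it fell by 0.57 from day 3 to day 7 (adjusted p = 2.62e-08). In control it rose by 0.19 from day 7 to day 11 (adjusted p = 0.00964), and without replicate 2 of control on day 7 the step was 0.12 (adjusted p = 0.0863).

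Rgs10, a small Gi regulator of the R12 subfamily, peaked on day 3 and stayed higher in knockdown afterwards. Control read 104, 93.1, 90.1 and 88.7 on day 0, 166, 158, 177 and 192 on day 3, 93.5, 114, 101 and 109.7 on day 7, and 116, 113, 116 and 97.5 on day 11. Knockdown ranged from 73.0 to 120.3, 184 to 219.6, 145 to 184 and 138 to 165. The arms overlapped on days 0 and 3 and were apart on days 7 and 11. The rise with knockdown was 0.49 on day 7 (0.27 to 0.72, adjusted p = 0.00112) and 0.34 on day 11 (0.12 to 0.55, adjusted p = 0.0209). Without replicate 4 of control on day 11 the latter was 0.29 (adjusted p = 0.0625), and over all alternatives its adjusted p ran from 0.00665 to 0.192.

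Rgs12, the large R12 member, was highest before induction in both arms. Control ranged from 1219 to 1397 normalized reads on day 0, 574 to 667 on day 3, 576 to 680.1 on day 7 and 739 to 829.6 on day 11. Knockdown ranged from 1246 to 1527, 472 to 543, 555 to 646 and 528 to 652. In knockdown it fell by 1.37 from day 0 to day 3 (adjusted p = 5.40e-14). Control rose by 0.31 from day 7 to day 11 (0.19 to 0.43, adjusted p = 3.66e-05), while the step in knockdown was -0.03 (-0.17 to 0.11, adjusted p = 0.721). Every knockdown library had less than every control on day 3 (log2 difference -0.25, not tested). The same held on day 11, a fall by 0.39 (-0.55 to -0.24, adjusted p = 0.00139), and the arms overlapped on day 7 (-0.06, adjusted p = 0.541). Of its exon bases, 5.50% also lie in the antisense gene Gm43791.

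Levels of different genes were set side by side per kilobase of exon, counting the exon bases of all annotated isoforms together (GENCODE M21, GRCm38). These ran from 1711 bases for Rgs10 to 10801 for Rgs3. Which isoforms were expressed was not determined, so the order depends in part on the annotation. In control preadipocytes on day 0, Rgs16 led at 909.6 ± 32.2 normalized reads per kilobase (SD, n = 4) and Rgs19 followed at 360.1 ± 10.8. Rgs4 came next at 189.9 ± 12.1, then Rgs12 at 153 ± 9.13, Rgs2 at 109.8 ± 6.39, Rgs10 at 54.9 ± 3.93, Rgs3 at 37.4 ± 2.14 and Rgs17 at 31.1 ± 1.67. At day 3 Rgs2 led at 8586 ± 131 per kilobase, with Rgs16 next at 505 ± 33.9. At day 11 Rgs16 led again in control at 851 ± 94.2, with Rgs2 at 399 ± 57.3 and Rgs19 at 350.0 ± 19.7, which lay within 1 SD of each other. In knockdown on day 11 the order differed by hairpin. With shRNA 1 Rgs2 stood at 969 ± 120.2 and Rgs16 at 621 ± 59.1 per kilobase (SD, n = 2), and with shRNA 2 Rgs16 stood at 1154 ± 53.1 and Rgs2 at 789 ± 22.8.

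Counted together on day 0, 0 of 7 members tested (all but Rgs2) differed between knockdown and control by limma at an adjusted p under 0.05. Over all 13216 genes tested, 3.25% were called (0.817% higher and 2.44% lower), and 2609 had an unadjusted p under 0.05. Voom on the rebuilt reads also called 0 members. With the shRNAs as separate groups 4 members were called on that day, namely Rgs3, Rgs4, Rgs16 and Rgs17, beside 25.3% of all genes in that fit. At day 7, 5 of 8 were called, with Rgs2, Rgs10 and Rgs17 higher and Rgs4 and Rgs16 lower, beside 47.6% of 13299 genes (24.9% higher and 22.6% lower). At day 11, 5 of 8 were called, with Rgs2, Rgs10 and Rgs17 higher and Rgs4 and Rgs12 lower, beside 33% of 13281 genes (16.8% higher and 16.2% lower). With so few members and such backgrounds these counts describe the members and set them apart from nothing.

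**Figure D2:**
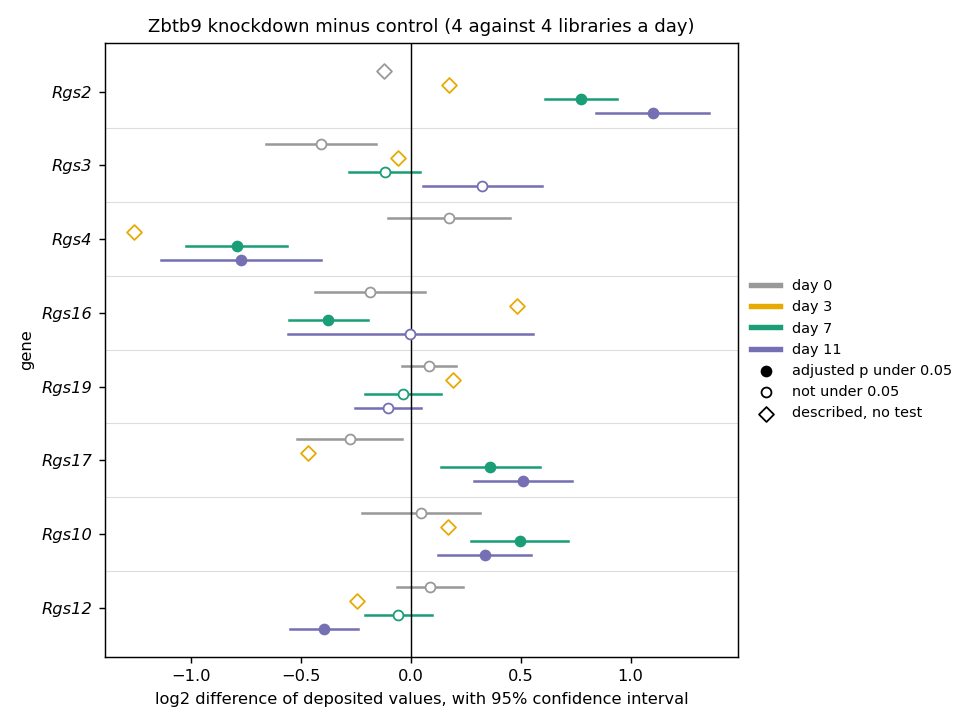
Log2 difference of the deposited values, knockdown minus control, for 8 RGS genes on days 0, 3, 7 and 11, with 95% confidence intervals from limma, filled where the adjusted p is under 0.05 and diamonds where no test is given. Rgs2 lies at 0.78 and 1.10 on days 7 and 11, and Rgs4 at -0.79 and -0.77.

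Whether the knockdown difference itself changed between days was tested as an interaction over all 32 libraries. From day 0 to day 7 it changed in 3 of 7 members tested, beside 29.9% of 13571 genes. For Rgs2, untested here as its day 0 controls entered the choice, it moved by 0.90. It moved up by 0.64 for Rgs17 (0.34 to 0.95, adjusted p = 0.00124) and by 0.45 for Rgs10 (0.17 to 0.73, adjusted p = 0.0131). For Rgs4 it moved down, at -0.97 (-1.42 to -0.51, adjusted p = 0.00122). From day 7 to day 11 it changed in 1 of 8 members, beside 12.7% of genes. That member was Rgs12 at -0.34 (-0.54 to -0.14, adjusted p = 0.02). Without replicate 3 of control on day 7 the value was -0.30 (adjusted p = 0.0537), in a range of adjusted p from 0.00872 to 0.0537 over its alternatives. Rgs3 stood at 0.44 (adjusted p = 0.0686) in that interaction, at 0.48 by voom (adjusted p = 0.0369) and at 0.56 without replicate 2 of shRNA 1 on day 11 (adjusted p = 0.0129).

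The 2 hairpins were compared with each other in fits of 3 groups a day. Members differing between shRNA 2 and shRNA 1 numbered 6 of 8 on day 0 (35% of all genes tested), 4 of 8 on day 7 (16.4%) and 4 of 8 on day 11 (22%). On day 3 it was 1 of 6 (19.6%), with Rgs2 and Rgs4 given without a test there because libraries of that day were taken as those that chose them. Rgs16 was higher with shRNA 2 on all 4 days, by 0.45 (0.34 to 0.56, adjusted p = 7.04e-08), 0.20 (0.06 to 0.34, adjusted p = 0.0342), 0.30 (0.14 to 0.47, adjusted p = 0.00902) and 0.86 (0.65 to 1.06, adjusted p = 2.75e-05). Rgs4 was lower with shRNA 2 on day 0 (-0.50, -0.67 to -0.34, adjusted p = 1.22e-05) and higher on days 7 and 11, by 0.39 (adjusted p = 0.0149) and 0.63 (adjusted p = 0.000815), with a difference of 0.57 on day 3. Rgs2 was lower with shRNA 2 on day 0 (-0.28, adjusted p = 0.0181) and day 7 (-0.32, adjusted p = 0.000216), and the difference was -0.47 on day 3 and -0.28 on day 11 (adjusted p = 0.183). The day 0 fit holds the controls taken to have chosen Rgs2, which enter its estimate of spread but not this difference. Rgs2 is among the 6 members counted for day 0. Rgs17 was higher with shRNA 2 by 0.38 on day 0, 0.40 on day 7 and 0.31 on day 11 (adjusted p = 0.00678, 0.00728 and 0.043). Rgs3 was higher by 0.39 on day 0 (adjusted p = 0.0041) and by 0.43 on day 11 (adjusted p = 0.00998), and Rgs12 by 0.21 on day 0 (adjusted p = 0.00855). With 2 libraries a hairpin these calls rest on few libraries, and many did not hold with 1 left out.

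Leaving out 1 library at a time ended several hairpin calls. Without 1 of its 2 libraries a hairpin keeps only 1, and the other groups supply the spread. A call lost in this way need not have rested on that library. At day 0, Rgs2 stood at -0.28 and -0.27 without replicate 1 or 2 of shRNA 1 and at -0.21 without replicate 2 of shRNA 2. Rgs3 stood at 0.27 without replicate 1 of shRNA 1, and Rgs17 at 0.35. Without replicate 1 of shRNA 2 Rgs3 stood at 0.29, Rgs17 at 0.35 and Rgs12 at 0.18, and Rgs12 at 0.18 without replicate 2 of shRNA 1, each above an adjusted p of 0.05. The call of Rgs16 on day 3 was lost without any 1 of the 4 knockdown libraries (0.16 to 0.24). At day 7 Rgs16 lost its call without replicate 2 of shRNA 1 (0.26) or replicate 1 of shRNA 2 (0.18). Rgs4 (0.31 and 0.29) and Rgs17 (0.34 and 0.35) lost theirs without replicate 1 of shRNA 1 or replicate 2 of shRNA 2. At day 11 Rgs3 lost it without replicate 2 of shRNA 1 (0.29) or replicate 1 of shRNA 2 (0.41), and Rgs17 without any 1 of the 4 knockdown libraries or replicate 3 of control (0.24 to 0.38). Other settings ended the day 3 call of Rgs16 (adjusted p = 0.127 unfiltered, 0.0511 under equal totals, 0.135 without trend and robust and 0.0901 in 1 fit of all libraries). Fits without trend and robust also ended those of Rgs12 on day 0 (0.0558), Rgs16 on day 7 (0.0828) and Rgs17 on day 11 (0.0869). So did 1 fit of all libraries for Rgs12 (0.0583) and no filter for Rgs17 on day 11 (0.0853). Rgs10 gained a call on day 0 without replicate 2 of shRNA 1 (0.50, adjusted p = 0.0333), without trend and robust (0.0392) and in 1 fit of all libraries (0.0408), against 0.35 (adjusted p = 0.0562). Rgs2 gained one on day 11 without replicate 3 of control (-0.28, adjusted p = 0.0354) and in 1 fit of all libraries (0.0257).

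**Figure D3:**
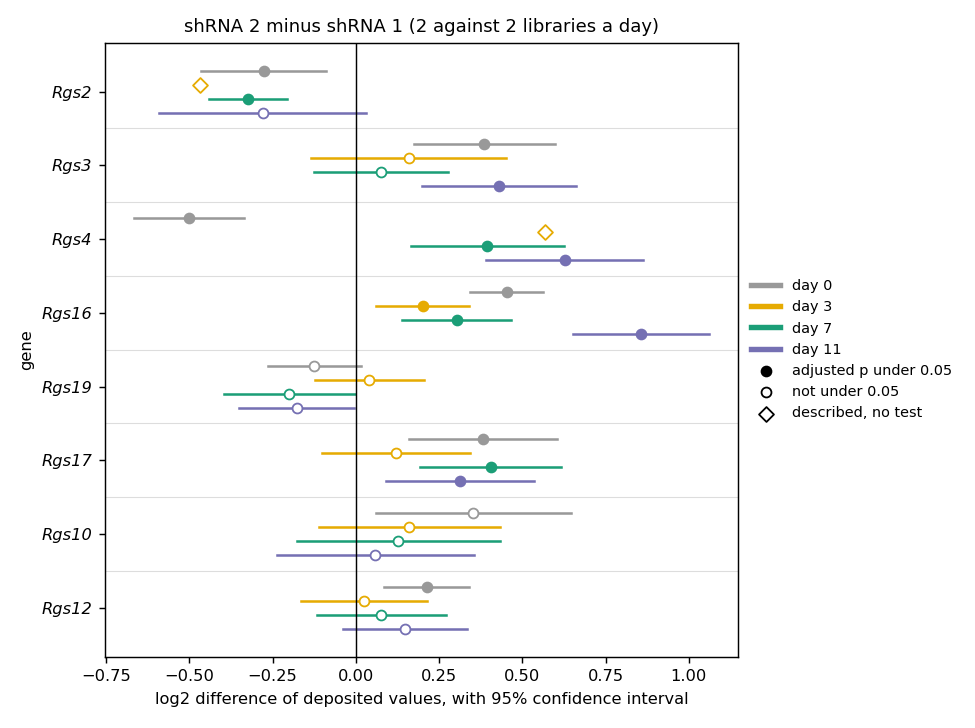
Log2 difference of the deposited values, shRNA 2 minus shRNA 1, for the same 8 genes and days, with 95% confidence intervals from limma filled where the adjusted p is under 0.05 and diamonds where no test is given. Rgs16 lies to the right of 0 on all 4 days, and Rgs4 moves from -0.50 on day 0 to 0.57, 0.39 and 0.63.

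The time course was tested in the knockdown arm and, for the last step, in control. From day 0 to day 3 in knockdown, 5 of 6 members tested were called, beside 75.1% of 13456 genes. Rgs10 (0.84, adjusted p = 1.45e-07), Rgs17 (0.29, adjusted p = 0.0021) and Rgs19 (0.22, adjusted p = 0.0026) rose, and Rgs3 and Rgs12 fell as given above. Under equal library totals, which shifted the median of all genes to -0.15 in this step, Rgs17 stood at 0.13 (adjusted p = 0.142) and Rgs19 at 0.06 (adjusted p = 0.357), while Rgs16 went from -0.14 (adjusted p = 0.231) to -0.30 (adjusted p = 0.0193). From day 3 to day 7, 6 of 6 tested were called, beside 71.6% of genes. Besides those already named, Rgs16 fell by 0.61 (adjusted p = 8.22e-05), Rgs10 fell by 0.27 (adjusted p = 0.0219) and Rgs12 rose by 0.24 (adjusted p = 0.00231). Without replicate 2 of shRNA 2 on day 7 Rgs10 stood at -0.22 (adjusted p = 0.0774). From day 7 to day 11, 3 of 8 were called in knockdown, beside 55.2% of genes, and 6 of 8 in control, beside 55% of 13421 genes. Rgs16 rose in both arms, by 0.85 in knockdown (adjusted p = 6.09e-06) and by 0.47 in control (adjusted p = 1.64e-08), and Rgs17 rose by 0.30 in knockdown (adjusted p = 0.00234) and stood at 0.15 in control (adjusted p = 0.0822). Without the hairpin term the adjusted p of Rgs17 in knockdown was 0.0645 for this step and 0.0552 from day 0 to day 3. Without replicate 1 of control on day 7 or on day 11 the control step of Rgs17 was 0.20 or 0.19 (adjusted p = 0.0366 and 0.0411). Equal totals added the call of Rgs17 in control (0.17, adjusted p = 0.0496) and of Rgs19 in knockdown (0.16, adjusted p = 0.0213, against 0.12 and 0.0808).

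The other genes of G-protein signalling were taken from 6 lists chosen with earlier results of these data known. Their counts are read beside the 3.25% of all genes called on day 0, 47.6% on day 7 and 33% on day 11. Of 13 further RGS genes and their binding partners, 10 were in the table and 3 to 4 passed the filter. Rgs8 alone was called, on day 7, where it entered the fit mainly through the controls, with 4 control libraries and 1 knockdown library at the filter, so that call had a direction set by the filter. It read 3.62 ± 2.63 in knockdown against 14.1 ± 1.51 normalized reads (SD, n = 4), -0.45 on the deposited log2 scale and -2.01 by voom on the rebuilt reads. Rgs9bp, an anchor for R7 subfamily RGS proteins, was not called on any tested day, at -0.11, -0.11 and -0.18 on days 0, 7 and 11. Gnb5, the beta subunit that partners those same proteins, rose with knockdown from 708 ± 41.5 to 1611 ± 350 on day 7 (1.10, 0.83 to 1.37, adjusted p = 2.28e-05) and from 535 ± 14.8 to 829 ± 59.8 on day 11 (0.59, adjusted p = 4.29e-05). At day 0 Gnb5 stood at -0.18 (adjusted p = 0.359).

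Among 10 alpha subunits tested, the substrates of RGS proteins, 0 were called on day 0, 3 lower on day 7, and 3 lower and 1 higher on day 11. So 3 of 10 were called beside 47.6% of all genes and 4 of 10 beside 33%. Gnao1, a Gi class subunit, fell by 0.40 on day 7 (adjusted p = 1.91e-05) and by 0.22 on day 11 (adjusted p = 0.009). Gnai2, a Gi subunit, fell by 0.35 (adjusted p = 7.17e-05) and by 0.27 (adjusted p = 0.0103). Gnas, the Gs subunit, fell by 0.21 on day 7 (adjusted p = 0.00432), and Gna13 rose by 0.38 on day 11 (adjusted p = 0.000105). Of 11 beta and gamma subunits tested, 1 was called on day 0 (Gng12, lower), 6 on day 7 (2 higher, 4 lower) and 4 on day 11 (2 higher, 2 lower), near the 47.6% and 33% of all genes. Named beside Gnb5 were Gnb4 (-0.48, adjusted p = 0.00253) and Gng5 (0.30, adjusted p = 0.00137) on day 7 and Gng7 (-0.50, adjusted p = 0.00952) and Gng11 (0.37, adjusted p = 0.00095) on day 11.

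Receptors gave the largest log2 differences of the lists. Of 36 listed, 31 were in the table. At day 7, 15 of 20 tested were called (8 higher, 7 lower) beside 47.6% of all genes, with a median log2 difference of 0.14 beside 0.01 over all genes. At day 11, 14 of 21 were called (8 higher, 6 lower) beside 33%, with a median of 0.08 beside -0.01. Hcar2, the Gi-coupled receptor of hydroxybutyrate and niacin, read 408 ± 38.0 against 31.1 ± 4.35 (SD, n = 4) on day 7, a rise of 3.07 (adjusted p = 4.91e-11), and rose by 3.16 on day 11 (adjusted p = 1.79e-06). Hcar1, the Gi-coupled lactate receptor, rose by 2.17 (adjusted p = 4.05e-09) and 2.33 (adjusted p = 7.42e-05). Adrb3, a Gs-coupled beta adrenergic receptor, rose by 2.66 on day 11 (adjusted p = 6.81e-06). The adipocyte marker sum given above moved with these rises, and its part was not tested. At day 0, 2 of 17 were called, Ptgfr (-0.26, adjusted p = 0.0197) and Npy1r (-0.41, adjusted p = 0.0401), and both lost the call without any 1 of the 4 controls (Ptgfr -0.27 to -0.23, Npy1r -0.46 to -0.35). So did Gng12 (-0.16, adjusted p = 0.0373, then -0.17 to -0.16). Npy1r (-0.37 and -0.35) and Gng12 (-0.16 and -0.15) also lost it without either library of shRNA 1, and both without trend and robust (adjusted p = 0.0788 and 0.091). A fit of all libraries ended the call of Npy1r (0.253) and Ptgfr (0.225), no filter that of Npy1r (0.0816) and equal totals that of Gng12 (0.0627).

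Of receptor kinases and arrestins, 6 were tested and Arrb1, an arrestin that ends receptor signalling, was called higher on day 7 (0.45, adjusted p = 7.85e-05) and day 11 (0.33, adjusted p = 0.0286). The day 11 value was 0.28, 0.27, 0.29 and 0.30 without replicate 1 or 2 of shRNA 1 or replicate 1 or 3 of control, with adjusted p of 0.0771, 0.0576, 0.0835 and 0.0832. Among adenylyl cyclases and phospholipases C beta, 4 of 8 tested were called on day 7 (47.6% of all genes) and 3 of 7 on day 11 (33%). Adcy5 is among both the 4 and the 8 of day 7, although its call had a direction set by the filter. Plcb1, an effector of Gq, rose by 0.82 (adjusted p = 4.86e-07) and 0.42 (adjusted p = 0.000719). Plcb3 fell by 0.24 (adjusted p = 0.00187) and Plcb4 by 0.43 (adjusted p = 0.00243) on day 11. Adcy5, a cyclase that Gi inhibits, read 56.7 ± 11.1 against 10.8 ± 6.26 on day 7, 1.18 on the deposited scale and 2.50 by voom. It too entered that fit mainly through 1 arm, with 4 knockdown libraries and 1 control library at the filter, and no p is given for it. Adcy7 fell by 0.45 on day 7 (adjusted p = 0.0137), or by 1.21 on log2 rebuilt reads plus 1.

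**Figure D4:**
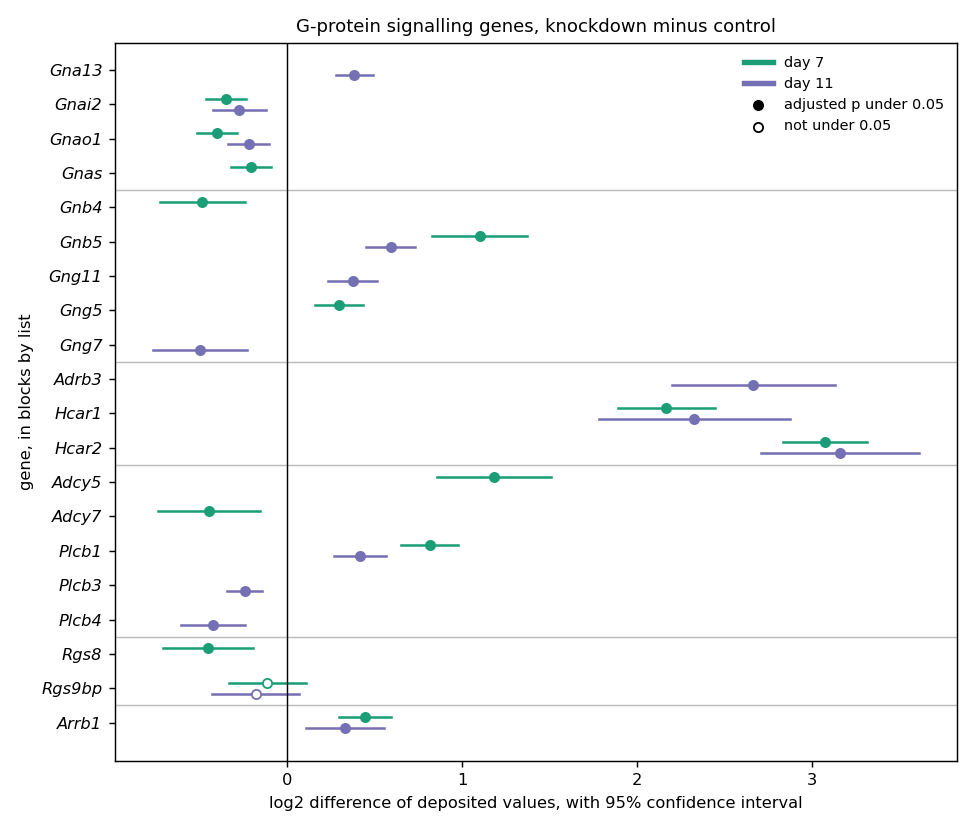
Log2 difference of the deposited values, knockdown minus control, for the genes of the signalling lists named in the text, on days 7 and 11, with 95% confidence intervals from limma. A gene has a point on the days where it was among the 3 largest called genes of its list (Rgs9bp and Gnb5 on both). Rgs8 and Adcy5 passed the filter mainly through 1 arm, so their intervals and fills are not to be read as tests. Hcar2 lies farthest right at 3.07 and 3.16.

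The genes most like Rgs2 were ranked by Pearson correlation over the 12 group means (3 hairpins by 4 days) among 10785 genes. They were Abhd5 (r = 0.997), Adam15 (0.994), Tmem161a (0.991), Fitm2 (0.990) and Nrip1 (0.989). Abhd5 is the co-activator of the lipase Pnpla2, and Fitm2 acts in lipid droplet formation. Abhd5 had means of 1093 normalized reads on day 0, 13246 on day 3, 5355 on day 7 and 2745 on day 11 in control, and 7671 and 3772 on days 7 and 11 in knockdown. For Rgs4 they were Ptpra (0.925), Scarf2 (0.924), Timp2 (0.920), Rapgef3 (0.914) and Dlg3 (0.913). Rapgef3 encodes a cyclic AMP-activated exchange factor, and Timp2 a metalloproteinase inhibitor. Rapgef3 had means of 1203, 297, 507 and 606 in control and 933, 149.7, 235 and 305 in knockdown on days 0, 3, 7 and 11. On day 0 it was thus lower in knockdown, where Rgs4 had 680 ± 148 against 588 ± 37.6 in control (SD, n = 4). The means of Ptpra, ranked first, ran only from 3962 to 4025 in control and from 3552 to 4201 in knockdown. These correlations are a description. Their 12 points share libraries, normalization and the course of differentiation.

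**Figure D5:**
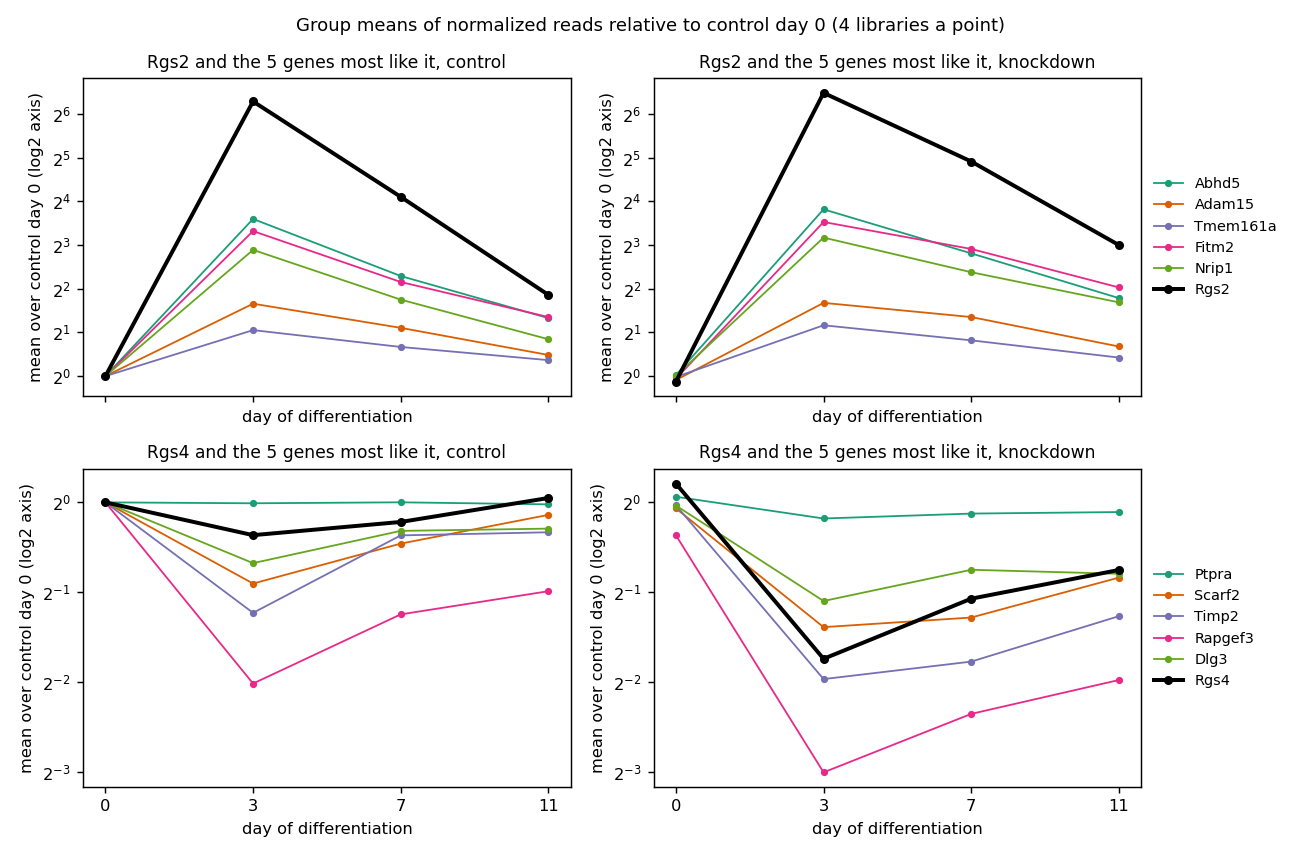
Group means of normalized reads divided by the control mean on day 0, on a log2 axis, for Rgs2 and Rgs4 (black) and the 5 genes most like each, in control (left) and knockdown (right), 4 libraries a point. Rgs2 and its 5 genes all peak on day 3, and Rgs4 falls lower in knockdown than in control from day 3.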

How the data were processed

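RNA of 32 libraries was sequenced from TruSeq RNA libraries, per the labels' protocols. The submitters' processing notes list TopHat2 2.1.0, Bowtie2 2.2.6, SAMtools 1.3.1 and HTSeq 0.6.1. Genome build, annotation, strand use and normalization are not given in the sources used here. The deposited values, from -1.56 to 17.99, are log2 and have the form of a regularized log, although no header names the step. Their groups and replicate numbers come from the sample titles.

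The members and lists were chosen with earlier results of these data known. Reads were rebuilt by inverting that form. Of 657920 values, 98.8% came within 0.1 of a whole read (20% by chance), and of 288 member values 280 did, the rest having at least 26207 reads. On simulated reads 99.7% were rebuilt exactly. All 32 replicate pairs differed by more than sampling noise (chi-square per gene 3.00 to 11.8).

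limma 3.58.1 (R 4.3.3), with trend and robust, was fitted to the deposited log2 values with no pseudocount. Genes entered at 2 to the power of the value of at least 10 in 4 libraries of a fit, and p-values were adjusted by Benjamini-Hochberg over all of them. Calls are at an adjusted p under 0.05. Knockdown was compared with control per day, with the libraries of both shRNAs pooled as 1 group and no hairpin term. Hairpins were compared in fits of 3 groups a day, and days in fits of all libraries of an arm (with a hairpin term in knockdown). Knockdown effects between days were tested over all libraries, again with the shRNAs pooled. Of the signalling lists, up to 3 called genes a list and day with the largest differences are named, besides Gnb5 and Rgs9bp. One receptor gene that the rule names is not reported here. Rgs7bp fell under the filter. Alternatives were other filters, equal totals, rebuilt reads plus 1 or 5, voom, other fits, the replicate block and leaving out each library. Voom used the size factors of the deposited values in place of the planned TMM scaling, a choice made after seeing the data. Without molecular identifiers, reads can be copies of 1 molecule, so the read floor covers counting error only. Positions are from GENCODE M21 and stretches upstream of genes from RefSeq, both GRCm38, which may not be the authors' build.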

Additional observations from a re-analysis of the deposited data

Results flagged for a closer look

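In 3 of 36 control groups of 4 libraries, 1 library lay far from the other 3, its gap to the nearest divided by the group's range, both on the deposited log2 scale, passing Dixon's 95% limit for 4. Chance gives about 1 in 20. The libraries were replicate 1 at day 7 for Rgs5 (0.835, at 8 reads against 2 or 3), replicate 4 at day 11 for Rgs10 (0.841, at 97.5 normalized reads against 113 to 116) and replicate 2 at day 7 for Rgs19 (0.831, at 579 against 697 to 724).

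The knockdown difference itself changed between days in 4 tests of the interaction. From day 0 to day 7 it moved by -0.97 for Rgs4, 0.45 for Rgs10 and 0.64 for Rgs17 on the log2 scale. These were 3 of 7 members tested, beside 29.9% of all genes called. From day 7 to day 11 the difference moved by -0.34 for Rgs12, 1 of 8 members tested, beside 12.7% of all genes. All 4 passed an adjusted p of 0.05 by limma.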

How the results depend on the processing

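Member counts stayed within 1.5 times in 109 of 117 alternatives that kept all libraries. At day 0, knockdown against control called 4 members with the shRNAs as separate groups and 1 in a fit of all 32 libraries, against 0. The interaction from day 7 to day 11 called 2 by voom, against 1. Between hairpins on day 3, no filter, equal totals, fits without trend and robust and 1 fit of all libraries each called 0, against 1. Nothing in the labels pairs libraries by replicate number. Same-numbered deviations correlated at -0.00519 to 0.215 between knockdown and control (16 pairs, 3 over 0.1, all 3 on day 11), 0.00999 to 0.0999 between shRNAs (4 pairs), and between days at -0.0941 to 0.119 in control (24 pairs), -0.0366 to 0.102 with shRNA 1 (6 pairs) and 0.0115 to 0.105 with shRNA 2 (6 pairs), so not every pair passed 0.1. With the replicate block, in which controls 3 and 4 meet no knockdown library of their number, day 11 called 2 members (Rgs2 and Rgs17) against 5, and day 7 called 4. There Rgs4 stood at -0.83 (adjusted p = 0.0824), Rgs10 at 0.29 (0.192) and Rgs12 at -0.35 (0.0503) on day 11, and Rgs17 at 0.29 (0.181) on day 7. Of the signalling genes it ended Gng12 (0.576), Npy1r (0.602) and Ptgfr (0.47) on day 0, Gnas (0.127) and Adcy7 (0.0917) on day 7, and Gnai2 (0.133), Gnao1 (0.115), Gng7 (0.0901), Arrb1 (0.134) and Plcb3 (0.0551) on day 11. Between hairpins it added Rgs10 on day 0 (0.0487) and Rgs2 on day 11 (0.00574). The block reversed Rgs10 on day 0 (-0.0086) and Rgs19 on day 7 (0.031), and equal totals reversed Rgs3 (0.015) and Rgs12 (0.0065) in knockdown from day 7 to day 11, none of them called. Leaving out 1 library gave 0 to 1 members on day 0, 3 to 6, 0 to 1, 2 to 4 and 2 to 4 between hairpins on days 0, 3, 7 and 11, and 0 to 2 in the interaction from day 7 to day 11. It also turned uncalled values near 0. Between arms these were Rgs10 on day 0 (-0.035 to 0.15), Rgs19 on day 7 (-0.11 to 0.0036) and Rgs16 on day 11 (-0.16 to 0.17). Between hairpins they were Rgs12 (-0.068 to 0.12) and Rgs19 (-0.035 to 0.12) on day 3, Rgs3 on day 7 (-0.035 to 0.19) and Rgs10 on day 11 (-0.045 to 0.16). In knockdown from day 7 to day 11 they were Rgs3 (-0.096 to 0.060) and Rgs12 (-0.059 to 0.0027), and in the interaction of that step Rgs4 (-0.10 to 0.18) and Rgs19 (-0.11 to 0.0014). The cause of these changes was not tested.

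Over all genes, the day 0 count of 430 became 3340 with separate shRNA groups, 261 without trend and robust, 0 with the block, and 111 to 250 without any 1 control or replicate 2 of shRNA 1. The block gave 4112 of 6328 on day 7 and 1652 of 4382 on day 11. Between hairpins, the 2572 calls of day 3 became 1710 unfiltered and 1454 without trend and robust, the 2183 of day 7 became 1035 without trend and robust, and single libraries left out gave at least 1633, 1003 and 1479 on days 3, 7 and 11. Equal totals moved the share of higher calls from 25.1% to 43.3% on day 0, from 45.8% to 61.9% between hairpins on day 7, from 50.3% to 37.7% in knockdown from day 0 to day 3 and from 56.0% to 40.7% in the interaction from day 0 to day 7. They shifted the median of all genes to -0.12 in control from day 0 to day 3, where Rgs2 stood at 5.92. Rgs5, at 0 to 18 reads per library, fell under the filter on low values and was given no test.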
